A study of Mus musculus with 15 samples.

Results

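Mouse Chr1 was followed through 2757 array probes, each a short stretch of genomic DNA, in 5 hepatocellular carcinomas (HCC) and 3 unaffected livers. The members are all non-control probes that the array files place on Chr1, in order of position, out of 42404 distinct probes and 40726 autosomal ones, so that they make up 6.77% of the autosomal probes. They run from position 4336501 to 196997388, with a median spacing of 25.6 kb, and 2340 of them carry 1 of 1292 gene names. A proximal part of 1029 probes that start at or below 82 Mb was set beside the remaining 1728 probes.

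Array comparative genomic hybridisation (aCGH) mixes labelled tissue DNA with labelled reference DNA on the same slide, and each value below is log2 of tissue over reference, where 0 is the median autosomal probe of that array. All 3 animals carried AlbuminCre, which acts in hepatocytes, and were homozygous for a floxed Mad2, the gene Mad2l1. Mouse 3151 was a female of 16.4 months with the genotype Mad2(f/f) p53(f/+), and gave HCC 3151LT2, HCC 3151LT1 and an unaffected liver. Mouse 3760 was a male of 13.8 months with Mad2(f/f) p53(f/f), and gave HCC 3760LT2 and an unaffected liver. Mouse 4033 was a male of 13.9 months with the same genotype, and gave HCC 4033LT2, HCC 4033LT1 and an unaffected liver. In these names the digits before LT are the animal and the digit after it is the tumor number. The mice had a mixed strain background that included C57BL/6, and the reference was DNA from normal wild type liver, always of the opposite sex and labelled with the same background. Genotype, sex and age cannot be told apart here, since the only heterozygous animal was also the only female and the oldest. All its tissues were scanned on the same day, when 4033LT2 was the only other tissue scanned. Hepatocytes are a part of the cells in a liver or a resected tumor, so that a level between whole copies can come from fewer altered cells or from a smaller change in each, and these cannot be told apart.

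Mad2l1 encodes a core protein of the spindle assembly checkpoint, which delays anaphase until all chromosomes are attached to the spindle, and cells without it missegregate whole chromosomes. A missegregated chromosome changes all of its probes together, whereas a break followed by loss or gain of an arm or a segment leaves a step along the chromosome. Mouse chromosomes have the centromere at one end, so that the proximal part lies next to it. A probe can also give a shifted value in a healthy tissue where its sequence or copy number differs between mouse strains, and the mice here had a mixed background.

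The results turn on a few positions where the level of Chr1 changes, and the probes beside them are shown first. The first is the nearest lower probe beyond the step in 3151LT2. The next pair flanks the left edge of a short low stretch in 3151LT1, and the last is the final high probe before the large step in the same tumor. They are printed 5′ to 3′ as the array files give them, in lower case throughout since no base within them was singled out, and 3 of the 4 carry no gene name.
chr1:19332221-19332280: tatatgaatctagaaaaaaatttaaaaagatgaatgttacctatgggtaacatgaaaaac
chr1:81741638-81741695: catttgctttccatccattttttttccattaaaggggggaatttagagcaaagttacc
chr1:82021018-82021077: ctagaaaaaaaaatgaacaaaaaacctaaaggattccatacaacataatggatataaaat
chr1:100446536-100446595: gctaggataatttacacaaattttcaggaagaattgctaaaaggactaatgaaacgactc
The third of these is named AK006176. Neither the build behind these positions nor the strand is given in the sources used here, and 17 probes start past the last Chr1 gene of the RefSeq table for GRCm38.p6, so that no coordinates of that table were used.

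Taken over all probes, Chr1 was highest in 4033LT1 at 0.30, followed by 3760LT2 at 0.21, 3151LT1 at 0.08, 4033LT2 at 0.04 and 3151LT2 at -0.22. The unaffected livers lay at 0.06 (mouse 3760), 0.05 (mouse 3151) and 0.00 (mouse 4033). The HCC thus lay on both sides of the livers, and the livers differed from each other by less than any neighbouring pair of HCC except 3151LT1 and 4033LT2. The group means were 0.08 ± 0.20 (SD, n = 5) and 0.04 ± 0.03 (SD, n = 3). The difference of 0.05 had a 95% interval from -0.20 to 0.29 and did not pass limma across 19 autosomes (adjusted p = 0.704), where 5.26% of the autosomes were called. Chr1 had the largest p of the 19. With only the 2 HCC and 2 livers scanned on the first day the difference was 0.23 (limma adjusted p = 0.0939). With the 3 HCC and 1 liver of the second day it was -0.08. The second day held every tissue of mouse 3151 and, besides them, only 4033LT2, so that scan day and that mouse can hardly be told apart.

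An absolute level of 0.3, the size used in the study for a whole-chromosome event, was reached by 1 HCC, 4033LT1. For scale, Chr X differed between the sexes, that is between 1 and 2 copies, by 0.89 ± 0.03 (SD, n = 3) in the livers. A gain of 1 copy over 2 is a smaller step on the log2 scale, so that this measured step compares with losses only. Against its own liver, Chr1 of 4033LT1 was higher by 0.30.

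**Figure D1:**
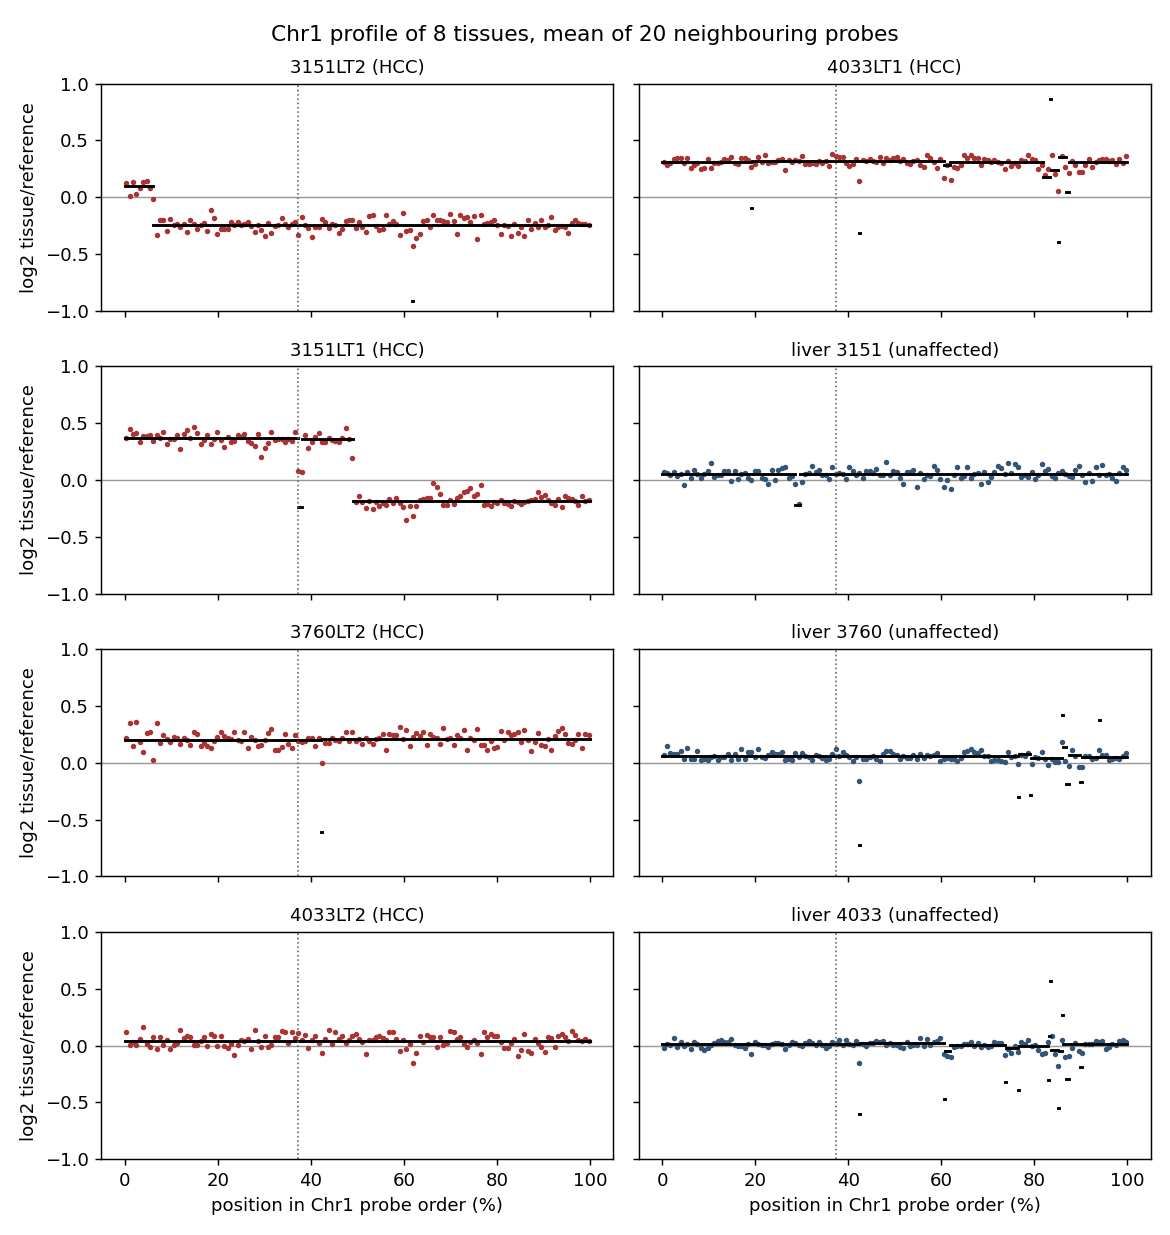
Mean log2 tissue over reference of 20 neighbouring Chr1 probes (points) against the place in probe order (percent of 2757 probes), with segment levels as black lines and the 82 Mb boundary dotted. 3151LT2 and 3151LT1 show steps, while 3760LT2, 4033LT2, 4033LT1 and the livers run level apart from short regions.

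Whole-length shifts and steps were separated by subtracting from each HCC the unaffected liver of the same mouse and dividing Chr1 into segments of at least 5 probes. No step was found in 3 of 5 HCC. 4033LT1 lay 0.30 above its liver along all 2757 probes, 3760LT2 lay 0.15 above, and 4033LT2 lay 0.04 above. Against the reference, the 10-Mb windows of 4033LT1 with enough probes ranged from 0.25 to 0.36, those of 3760LT2 from 0.17 to 0.24, and those of 4033LT2 from 0.00 to 0.07. The tumors of mouse 4033 differed evenly, by 0.26 ± 0.00404 (SE over 2757 probes), and a direct comparison of the pair gave no step either. 4033LT2 was on another slide and scan day than 4033LT1 and their liver, so that tumor, slide and day cannot be told apart in this difference. The SE covers the spread along the chromosome and not the error of a level. Forward and dye-swap levels of the same DNA differed by up to 0.09. 3760LT2 was measured on a forward array only.

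The remaining 2 HCC, both from mouse 3151, had steps. A step was counted on an autosome when segments of at least 50 probes differed by at least 0.3 from each other. Such steps were found on 5 of 95 autosomes over the 5 HCC, 5.26%, and 2 of the 5 were Chr1. Chr1 of 3151LT1 spanned 0.56 between its segments, and the largest span on another autosome was 0.52, on Chr5 of the same tumor.

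In 3151LT2 the step lay between 2 neighbouring probes 107 kb apart. The last probe on the higher side, chr1:19224663-19224722, is named Tcfap2b, an older name for the transcription factor AP-2 beta gene, and the first on the lower side is the unnamed probe at 19332221 printed above. The 170 probes before the step averaged 0.10 ± 0.0175 (SE over probes), near the liver of the same mouse at 0.05, and held 73 gene names from Rp1h to Tcfap2b. The 2587 probes after it, 93.8% of the chromosome's probes, lay below that liver, at a difference of -0.30. Both arrays of 3151LT2 showed the drop, from 0.01 to -0.29 on the forward array and from 0.19 to -0.21 on its dye swap, taking the 859 probes that follow. The height of the first block thus differed between the arrays by more than its SE. The position of the step was less firm than its size. On the dye-swap array alone, the higher segment ended 1 probe later, and with normexp background correction the step lay between 20792829 and 20799673.

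In 3151LT1 the 82 Mb boundary did not mark the end of the high part. The proximal part was at 0.37 and the remaining probes averaged -0.09, but 305 of those, 17.7%, belonged to a further high segment. Relative to its own liver, the tumor was 0.32 higher over 1029 probes up to 81741695. It was then lower (-0.22) over 21 probes from 82021018 to 82727730, 0.29 higher over 305 probes from 82747070 to 100446595, and lower again (-0.23) over the last 1402 probes from 101960228. The large step to the low level lay in an interval of 1514 kb that holds no probe, between the unnamed probe at 100446536 printed above and a probe named C230078M14Rik. In all, 1334 probes (48.4%) lay in high segments and 1423 probes (51.6%) in low segments. With both sides of nearly equal size, the chromosome mean of 0.08 was close to that of the livers.

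These steps divide Chr1 into 5 blocks, which were chosen from these values and are given as a description. Block 1 has 170 probes and ends at 19224722, block 2 has 859 and ends at 81741695, block 3 is the short stretch of 21 probes, block 4 has 305 and block 5 has 1402. In 3151LT1 the blocks lay at 0.39, 0.36, -0.24, 0.36 and -0.18 against the reference. In 3151LT2 they lay at 0.10, -0.25, -0.24, -0.25 and -0.24. Tumors of the same liver were therefore apart by 0.30 in block 1, by 0.61 in block 2 and by 0.61 in block 4. They differed by 0.00 ± 0.0451 (SE over 21 probes) in block 3 and by 0.06 ± 0.00755 in block 5. These distances depend on where 0 lies in each array. With arrays centred on the mode of their probes, 3151LT1 was at -0.12 and -0.14 against its liver in blocks 3 and 5. The part of 3151LT2 after its step was then at -0.41. Segmenting the difference of these tumors, with no liver in the calculation, placed all 4 steps between the same probes.

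**Figure D2:**
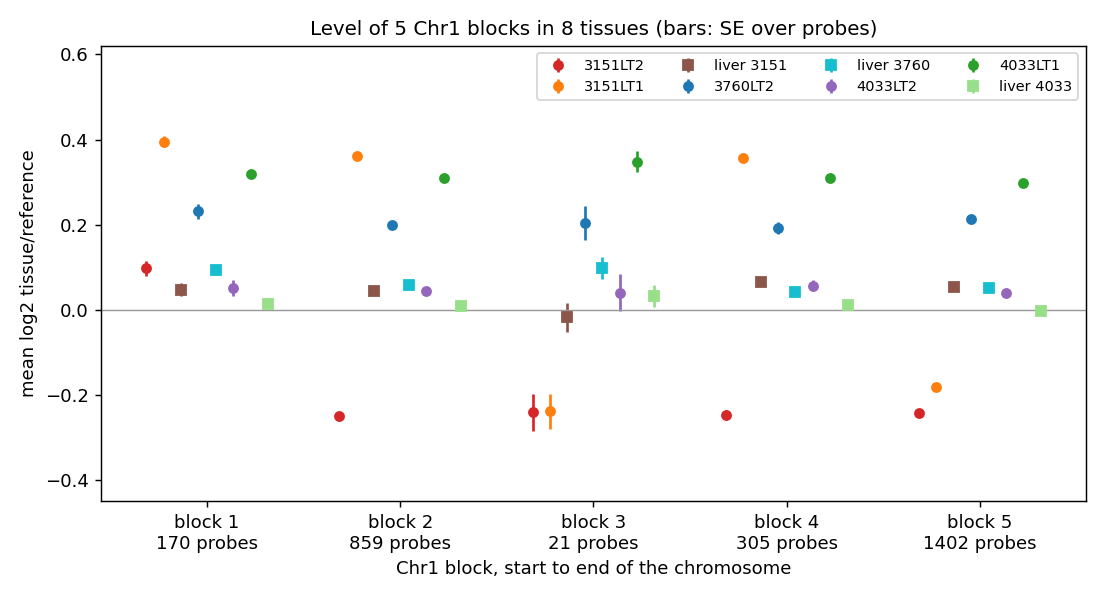
Mean log2 tissue over reference (vertical axis) of the 5 Chr1 blocks in each of 8 tissues, with circles for HCC, squares for livers and bars for the SE over probes. 3151LT1 falls from high to low in blocks 3 and 5, 3151LT2 is low in blocks 2 to 5, and in each other tissue the blocks span at most 0.08.

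The same blocks in the other tissues were close to even. 4033LT1 ranged from 0.30 to 0.35 over the 5 blocks, 3760LT2 from 0.19 to 0.23 and 4033LT2 from 0.04 to 0.06. The liver of mouse 3760 ranged from 0.04 to 0.10, that of mouse 4033 from 0.00 to 0.03 and that of mouse 3151 from -0.02 to 0.07. The share of single probes above 0 follows the blocks: in 3151LT1 it was 97.6%, 95.7% and 97.0% in blocks 1, 2 and 4, and 9.52% and 16.0% in blocks 3 and 5. In the liver of the same mouse it was 67.1%, 65.5% and 66.2% in the former and 38.1% and 65.6% in the latter.

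The losses were smaller than the Chr X step between 1 and 2 copies. Against its own liver, 3151LT1 stood at -24.9% and -26.2% of that step in blocks 3 and 5. Blocks 2 to 5 of 3151LT2 lay between -35.3% and -25.2% of it. These percentages depend on where 0 lies. With arrays centred on the mode of their probes, block 5 of 3151LT1 was at -0.14 against its liver instead of -0.23, and the part of 3151LT2 after its step at -0.41 instead of -0.30, with the same step positions.

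The short low stretch of 3151LT1 holds 7 gene names over 0.707 Mb. They are the clones AK006176 and AK043693, Irs1, the adapter that carries insulin and IGF signals from their receptors, Rhbdd1, an intramembrane protease of the rhomboid family, Col4a4 and Col4a3, chains of basement membrane collagen, and the first of the probes named 5230400G24Rik. The 21 probes averaged -0.24 ± 0.186 (SD over probes) in 3151LT1, and 19 of them lay below 0. The 10 probes on the left averaged 0.45 ± 0.0992 (SD) and the 10 on the right 0.40 ± 0.173 (SD), with none of them below 0. At the right edge, the last low and the first high probe both carry the name 5230400G24Rik and lie 19.3 kb apart. With normexp background correction the stretch ended 1 probe earlier. The left edge lies in a gap of 279 kb.

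The values of named genes within the stretch are its own probes grouped by name. They describe the stretch, which was set by these probes, and add no support to it. Irs1, with 4 probes, lay at -0.18 in 3151LT1, between Cul3, a ubiquitin ligase scaffold in the high part to its left, at 0.61, and a high flank to its right. In the other HCC Irs1 lay at -0.34 (3151LT2), 0.13 (3760LT2), 0.14 (4033LT2) and 0.25 (4033LT1), and in the livers at -0.01 (mouse 3151), 0.08 (mouse 3760) and -0.03 (mouse 4033). Col4a4 with 4 probes was at -0.35 and Col4a3 with 3 probes at -0.26 in 3151LT1. Rhbdd1 was lowest at -0.47, but its liver was also low there at -0.21, so that its 2 probes overstate the tumor's change.

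Both arrays of 3151LT1 had the low stretch, with levels of -0.32 (forward) and -0.16 (dye swap). On the dye swap alone the segment was shorter, with 16 probes from 82268393 to 82719196, with the leftmost AK006176 and Irs1 probes near or above 0, at 0.25, 0.14, 0.04 and 0.29, and the 5230400G24Rik probe at the right end at 0.22. Both edges are thus uncertain by these probes, and Irs1 itself straddles the left one on that array. The stretch was found under all 8 ways of processing compared, the main one included. It had 20 or 21 probes and levels from -0.29 to -0.12 against the liver. Other centring shifts each array by a constant, so that it could hardly move the edges. The liver of mouse 3151 lay at -0.02 over these probes, compared with 0.16 and 0.10 over the 10 probes on its left and right.

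**Figure D3:**
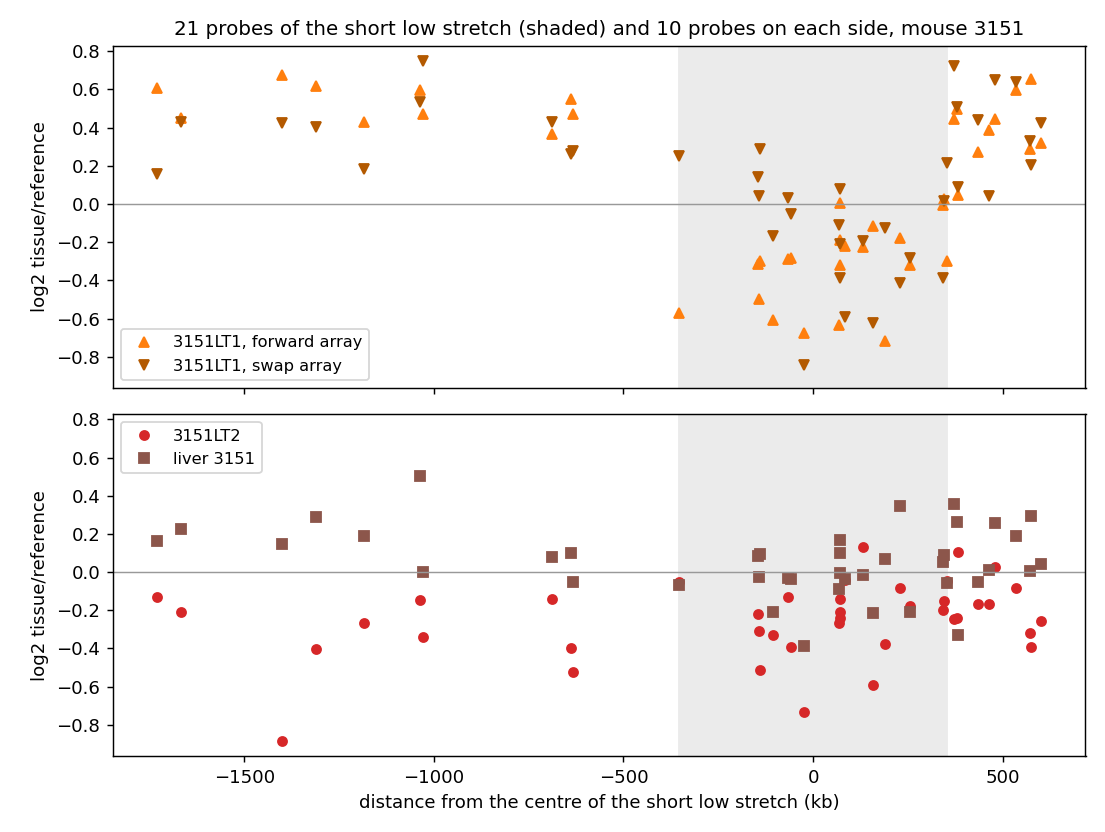
Log2 tissue over reference of the 21 probes of the short low stretch (shaded) and 10 probes on each side, against distance from its centre in kb, for both arrays of 3151LT1 (upper panel) and for 3151LT2 and the liver of mouse 3151 (lower panel). The flanking probes of 3151LT1 lie above 0 and most shaded ones below it, while most probes of 3151LT2 lie below 0 on both sides of the shaded part.

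The contrast of proximal part and remaining probes was carried by 3151LT1. The difference of these parts was 0.45 in 3151LT1, 0.05 in 3151LT2, 0.01 in 4033LT1, 0.00 in 4033LT2 and 0.00 in 3760LT2, against -0.01 to 0.01 in the livers. The mean over HCC was 0.10 ± 0.20 (SD, n = 5) and fell to 0.02 without 3151LT1. Moving the boundary into the probe-free interval of the large step widened the difference in 3151LT1 to 0.54 and the mean to 0.12.

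No single Chr1 probe passed the comparison of HCC with livers in limma across all autosomal probes (0 of 2757, smallest adjusted p = 0.352), where 0% of 40726 probes passed. At an unadjusted p under 0.05 there were 21 Chr1 probes against 3012 probes over all autosomes, 7.4%. In 23 Chr1 probes all HCC lay above all livers and in 1 all lay below, and these orders were found in 5.3% and 3.22% of autosomal probes. The Chr1 shares, 0.834% and 0.0363%, were below these backgrounds.

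Genes on Chr1 were described by 4 lists: mitosis, replication and repair, growth and survival, and liver function. Of 79 listed names, 73 had a probe. By place, 29 of the 73 lay in blocks 1, 2 and 4, and 44 in blocks 3 and 5. Their values against the own liver followed the blocks. In 3151LT1, 28 of the 29 were above their liver and 41 of the 44 below, beside 93.7% and 92.0% of all Chr1 gene names in the same blocks. Over all autosomes, 49.9% of gene names lay above the liver in this tumor and 50.1% below. In 3151LT2, 68 of the 73 were below, beside 89.9% of all Chr1 gene names (autosomal background 49.3%). In 4033LT1 all 73 were above, beside 99.0% of all Chr1 gene names (autosomal background 51.4%), and 0 below, beside 1.01% (48.6%). In 3760LT2 61 were above, beside 82.5% (50.7%). In 4033LT2 46 were above, beside 60.8% (48.3%), and 27 below, beside 39.2% (51.7%). The counts of the lists were thus near those of all Chr1 gene names. No probe of the lists passed limma (0 of 163 probes), and a single probe, in Creb1, had an unadjusted p under 0.05.

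**Figure D4:**
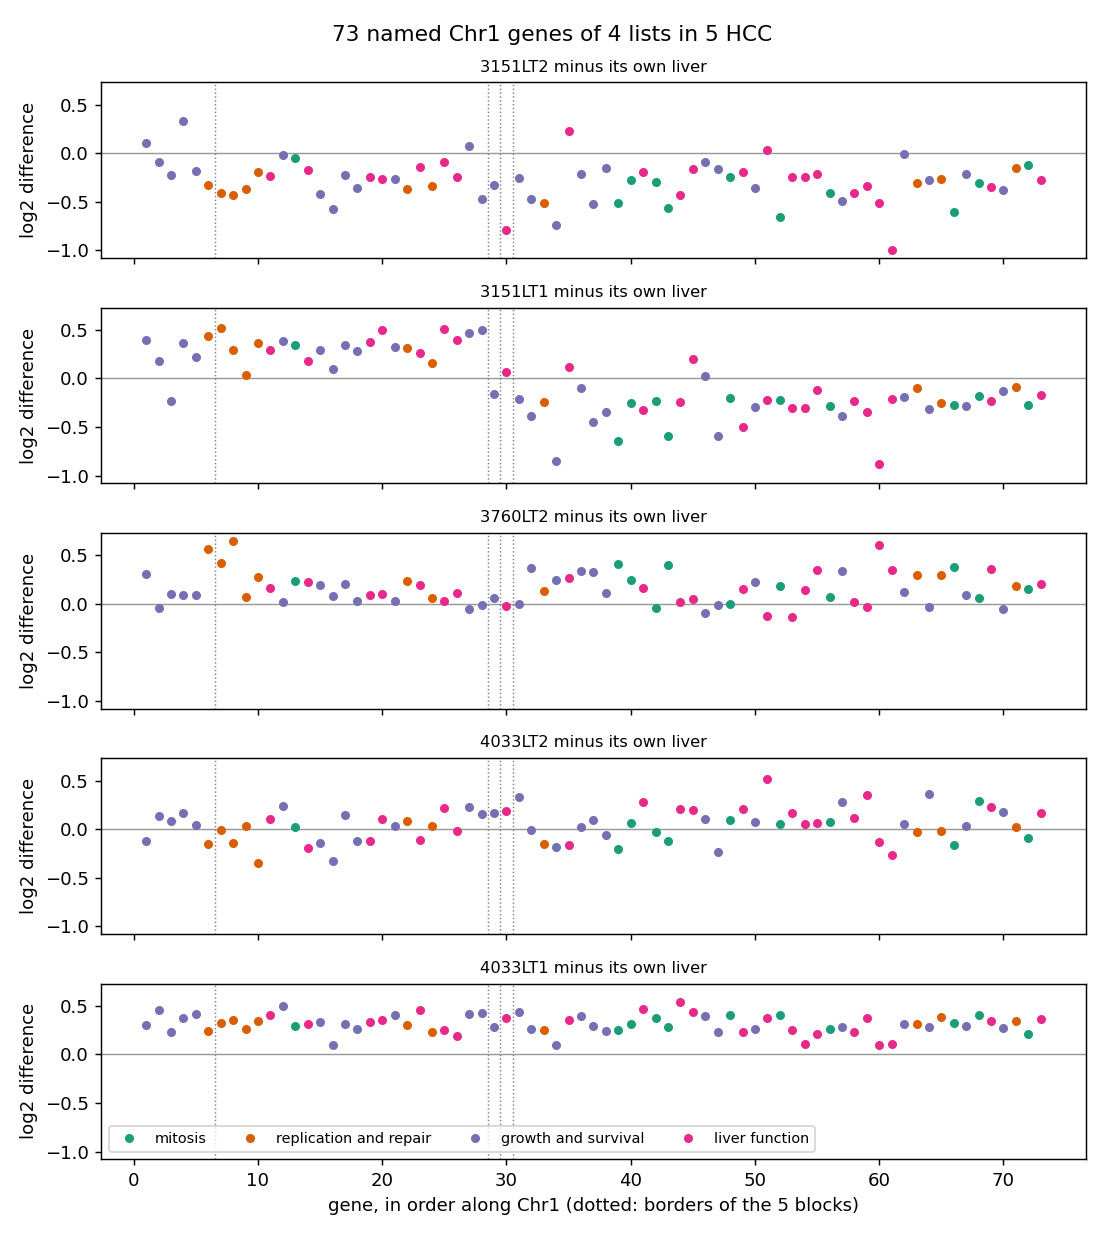
Log2 difference of each of 73 named genes between an HCC and its own liver (vertical axis), in order along Chr1, coloured by list, with dotted lines at the borders of the 5 blocks. The genes of 3151LT1 change sign past the border of the last block, and those of 4033LT1 lie above 0 along the whole chromosome.

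The mitosis list lay almost wholly on the distal side, with 10 of its 11 genes in block 5. Those 10 were all below the own liver in both 3151LT1 (median -0.26) and 3151LT2 (median -0.36), and all above it in 4033LT1 (median 0.32). Of all Chr1 gene names in blocks 3 and 5, 92.0% were below in 3151LT1, 92.7% below in 3151LT2 and 99.0% above in 4033LT1, so that the counts of the list are near those of its surroundings. Among them Tpr, a nuclear pore protein that anchors spindle checkpoint proteins, was at -0.20 in 3151LT1, -0.24 in 3151LT2 and 0.40 in 4033LT1. Nuf2, a subunit of the kinetochore complex that binds microtubules, was at -0.28, -0.41 and 0.27 in the same order. Cenpf, a kinetochore protein, was at -0.18, -0.30 and 0.41. The member on the proximal side, Sgol2, which protects centromeric cohesion, was at 0.34 in 3151LT1 and -0.05 in 3151LT2.

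Replication and repair genes were divided by the large step in 3151LT1. Mcm3 and Mcm6 encode subunits of the same replicative helicase, and lay on opposite sides of it. Mcm3, in block 2, was at 0.52 against the liver and Mcm6, in block 5, at -0.24. In 3151LT2 they were at -0.41 and -0.51, and in 4033LT1 at 0.32 and 0.25. Bard1, the partner of Brca1, was at 0.31 in 3151LT1 and Parp1, which marks DNA breaks, at -0.25. All 7 genes of the list in the high blocks were above the liver in 3151LT1 and all 4 in block 5 below it. Each gene here rests on 2 or 3 probes, and in 3760LT2 such means ranged from 0.06 for Xrcc5 to 0.65 for Prim2 although the chromosome ran level.

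Of the 5 growth and survival genes in block 1, 2 were above their liver in 3151LT2 and 3 below. Cops5, a subunit of the COP9 signalosome, was at 0.33 and Rb1cc1, needed to start autophagy, at 0.11. Mybl1, Ncoa2 and Sgk3 were at -0.09, -0.18 and -0.23. In 3151LT1 Rb1cc1 and Cops5 were at 0.40 and 0.36, and Cul3 had the highest value of the list at 0.50. Past the large step, the apoptosis inhibitor Bcl2 was at -0.22 and Mdm4, an inhibitor of p53, at -0.35. Both were above the liver in 4033LT1, at 0.44 and 0.25. Cxcr4, a chemokine receptor, had the lowest values in 3151LT1 and 3151LT2, -0.84 and -0.74, but rests on 1 probe that was also 0.39 above the Chr1 median in the liver.

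Liver function genes followed the same order. In 3151LT1, Cps1, the first enzyme of the urea cycle, was at 0.50, Igfbp2, which binds insulin-like growth factors, at 0.51, and Cyp27a1, a bile acid synthesis enzyme, at 0.40. Beyond the large step, Glul, glutamine synthetase, was at -0.50, Nr5a2, a nuclear receptor of bile acid metabolism, at -0.32, and Prox1, a transcription factor of hepatocytes, at -0.24. In 4033LT1 the same 6 genes lay between 0.19 and 0.47. Crp and Apcs, both pentraxins with 1 probe each, had the lowest values, at -0.88 for Crp in 3151LT1 and -0.997 for Apcs in 3151LT2. The liver of mouse 3151 was itself high at these probes, at 0.39 for Crp and 0.33 for Apcs against the reference, where the tumors were at -0.49 and -0.67.

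Relative to the Chr1 median of the tissue, few list genes were far off in the livers. At 0.3 or more from that median stood 5 of 73 in the liver of mouse 3151, 1 in that of mouse 3760 and 0 in that of mouse 4033, beside 7.51%, 1.78% and 2.48% of all Chr1 gene names. The gene off the median in mouse 3760 was Prim2, a primase subunit, at -0.36. In the HCC such genes numbered 31 in 3151LT1 (44.4% of all Chr1 gene names), 7 in 3151LT2 (11.1%), 5 in 4033LT2 (9.52%), 2 in 3760LT2 (8.98%) and 1 in 4033LT1 (3.41%). The high share in 3151LT1 goes with its steps, since its median lies between the high and low blocks.

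Short regions that stood at least 0.3 from the Chr1 median were found against the reference in 25 places over the 8 tissues, and merged to 15. Of these, 13 were found in at least 1 unaffected liver, and the other 2 were block 1 of 3151LT2 and the short stretch of 3151LT1. The livers of mice 4033 and 3760 held 10 and 5, and that of mouse 3151 held 0. The probe noise was 0.08 and 0.09 in the former and 0.18 in the latter, so that regions of 5 to 10 probes were harder to find in mouse 3151.

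A raised region at chr1:173444942-173504014 holds 5 probes named Itln1 and Cd244. Itln1 encodes a lectin of the intestine and Cd244 a receptor of natural killer cells from the Slam family, whose locus is known to differ between inbred strains. It was 0.56 above the Chr1 median in the liver of mouse 4033, where 4 of its 5 probes were at least 0.3 off. In 4033LT1 and 4033LT2 it was at 0.54 and 0.48, while the other livers were at 0.02 (mouse 3151) and 0.01 (mouse 3760). All tissues of mouse 4033 thus held the raised region and neither of the other livers did.

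A nearby region at chr1:175662526-175885655, with 6 probes named AK054438, BC010546, AK172505 and Ifi203, an interferon-inducible gene, was raised in mouse 3760 as well. It stood at 0.35 in the liver of mouse 3760 and 0.26 in that of mouse 4033, with 4 of 6 probes at least 0.3 off in each. The 3 HCC of these mice were at 0.27 to 0.31. In mouse 3151 the liver was at 0.05 and 3151LT2 at -0.07.

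A lowered region from Ugt1a10, a member of the bilirubin and drug glucuronidation locus, to Trpm8, a cold-sensing channel, was found in 4 tissues. It was at -0.56 and -0.52 in the liver and HCC of mouse 3760 and between -0.45 and -0.44 in the 3 tissues of mouse 4033. Only 3 of its 7 probes were at least 0.3 off in either liver, and the median probe was at -0.06 and -0.22. The one named Syt2 and Ppp1r12b was at -0.69 in 3151LT2, -0.42 in its liver, where 3 of its 5 probes were far off, and -0.36 in the liver of mouse 4033, where 1 was. The region from Slamf8, another Slam family member, to AK050392 was at -0.72 in 4033LT1, -0.57 in its liver and -0.42 in 4033LT2, with 3 of 6 probes at least 0.3 off in that liver.

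**Figure D5:**
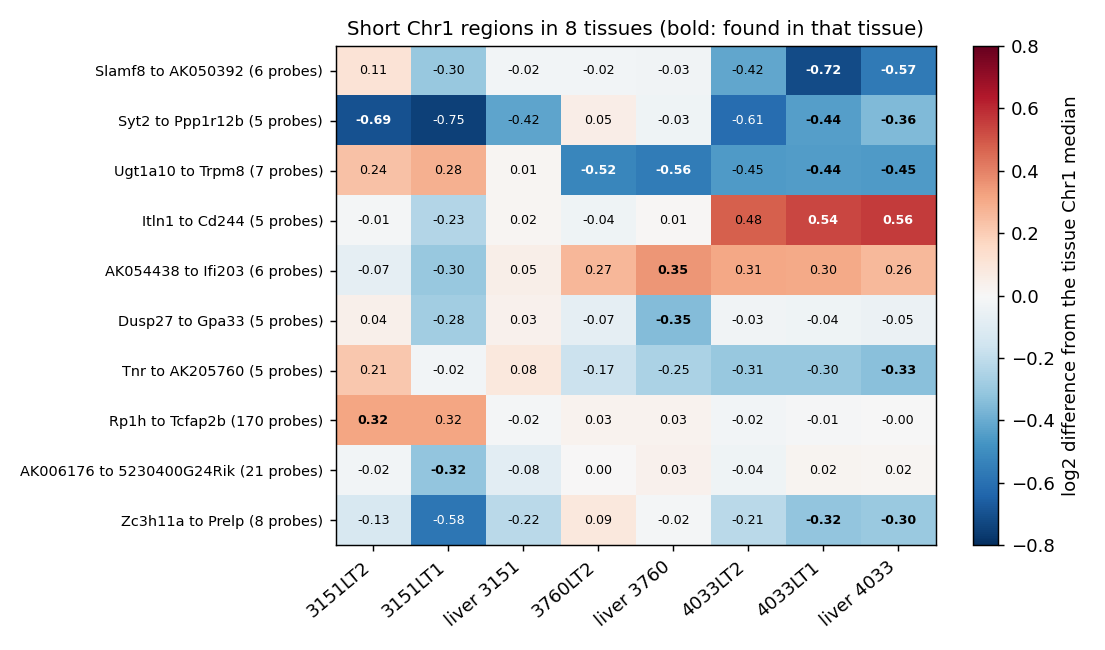
Log2 difference from the Chr1 median of the tissue for the 10 short regions with the largest values, in 8 tissues, with bold type where segmentation found the region (the median of 3151LT1 lies between its high and low blocks, which shifts its column). Regions such as Itln1 to Cd244 are shared by all 3 tissues of mouse 4033, whereas block 1 (Rp1h to Tcfap2b) and the short stretch (AK006176 to 5230400G24Rik) are near 0 in the livers.

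The unnamed single probes that differed most among the unaffected livers are shown with their sequences. They were chosen for that spread, and its cause was not tested.
chr1:135715528-135715587: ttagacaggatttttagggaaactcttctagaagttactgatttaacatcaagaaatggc
chr1:161427515-161427574: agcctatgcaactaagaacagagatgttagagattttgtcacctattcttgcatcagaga
chr1:51996605-51996664: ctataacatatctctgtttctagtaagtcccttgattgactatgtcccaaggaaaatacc
Relative to the Chr1 median, the first was at -1.82 in the liver of mouse 3151, -0.06 in that of mouse 3760 and -2.40 in that of mouse 4033. The second was at 0.57, -1.32 and -1.40, and the third at -0.63, 0.11 and -1.78. The livers therefore differed by 1.89 to 2.34 at these probes, more than any difference between blocks.

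How near the HCC lay to the liver of their own mouse differed between these probes. The second probe was at 0.69 and 0.29 in 3151LT2 and 3151LT1, at -0.85 in 3760LT2, and at -1.31 in both HCC of mouse 4033. The first probe was at -0.68 and -2.44 in 3151LT2 and 3151LT1, 0.48 in 3760LT2, and -1.28 and -2.37 in 4033LT2 and 4033LT1. Relative to the medians, only 4033LT1 lay within 0.5 of its own liver. The median of 3151LT1 (0.08) lies above its block 5 (-0.18), which holds the first and second probes. Both values of 3151LT1 thus read low, and its distance from its liver at the first probe depends on this. At the third, 4033LT2 was closer to 0 than its liver, at -0.64. Of the 10 probes with the largest range over livers, 9 lay beyond 82 Mb, as do 1728 of all 2757 Chr1 probes. The widest was a Prrx1 probe, at 0.68, -1.80 and -1.82 in the livers of mice 3151, 3760 and 4033, and the next named one lay in Smyd3, at 0.62, -1.47 and -1.52. An exception was a St8sia4 probe that was at 1.69 in the liver of mouse 3151 and at 0.08 and 0.27 in its HCC. Probes at least 1 below the median in the liver of mouse 4033 numbered 13. Of these, 12 were at least 0.5 off, in either direction, in each of its HCC. The counts were 6, 4 and 6 of the 13 in 3151LT2, 3151LT1 and 3760LT2. The median of the 13 was -1.20 in 4033LT2 and -1.31 in 4033LT1, against -0.07 in 3151LT2, -0.20 in 3151LT1 and -0.23 in 3760LT2. Some shifts were upward, as at the Prrx1 and Smyd3 probes in 3151LT2, at 0.72 and 0.65. For the 7 such probes of the liver of mouse 3760 the count was 6 in its own HCC and also 6 in each HCC of mouse 4033. For the 7 of the liver of mouse 3151 it was 4 and 5 in its HCC, 0 in 3760LT2, and 2 and 3 in 4033LT2 and 4033LT1.

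With block levels removed, the 2757 probes of tissues from the same mouse correlated by 0.34 on average (7 pairs, from 0.07 to 0.67), and those of different mice by 0.13 (21 pairs, from -0.24 to 0.48). The pairs share the reference DNA and, in part, slides and scan days, and probes are not independent. The liver of mouse 3760 correlated with the 3 tissues of mouse 4033 at 0.39 to 0.48, above several pairs from the same animal, and the liver of mouse 3151 with 3151LT2 at 0.07.

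In all 7 tissues with both dye orientations the dye swap gave a higher Chr1 level than the forward array, by 0.01 to 0.09, with the largest gap in the liver of mouse 3151. Gaps within blocks could be wider, as in block 1 of 3151LT2 (0.01 and 0.19) and block 3 of 3151LT1 (-0.32 and -0.16). Both HCC with steps shared a slide that held no liver, while the other 3 slides held an HCC and a liver each. The steps were found on both arrays of each tumor, and in 3151LT1 the large step lay between the same probes on both.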

How the data were processed

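Genomic DNA was labelled and hybridised against sex-mismatched normal liver DNA on 15 Agilent mouse arrays (8 forward, 7 dye swap). The intensity values used were the background-subtracted, dye-normalised processed signals that the authors deposited in the scanner files. The deposited log10 ratios of the series table served as an alternative. From these, log2 ratios were formed with dye swaps turned to the same direction, outlier spots were left out, spots of a probe averaged, arrays centred on the autosomal median without loess, and both orientations averaged to 1 replicate. The number of arrays limits the precision. Nothing states separate cultures or extractions beyond animal and tumor number.

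HCC and livers were compared with limma 3.58.1 in R 4.3.3 over 19 autosomes and over all autosomal probes, with Benjamini-Hochberg adjustment at 0.05. Segments came from optimal partitioning with at least 5 probes a segment and a penalty factor of 3 on the noise variance multiplied by ln of the autosomal probe count. Both the limma comparison and the segmentation were tested on simulated data. Of 100 probes shifted by 0.5 limma recovered 67, and of 100 shifted by 1 it recovered 91, with 7 false calls. The simulated probes were independent and had the spread of the livers. The HCC spread more (Chr1 level SD 0.20 against 0.03), so that these shares do not carry over to the comparison made here. Members, boundary and gene lists were chosen with earlier results of these data known. Named were the genes of the 4 lists, the 10 short regions and 10 liver probes with the largest values, and genes beside each step. Of 1292 gene names, 812 matched a current RefSeq symbol and 149 an older one. List names with no probe were Orc2, Prex2, Btg2, Pik3c2b, Ugt1a1 and Sgol2a, the last being another name of Sgol2, which has probes. Tissues of an animal form pairs by origin. Their deviations from group means over autosomes correlated between -0.40 and 0.27. Other tissues counted in the series text were not analysed here.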

Additional observations from a re-analysis of the deposited data

Results flagged for a closer look

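Of 83 values compared over the 5 HCC, 1 stood far from the rest. The difference of the proximal part and the remaining probes was 0.45 in 3151LT1, while the other HCC lay between 0.00 and 0.05. Chance flags about 1 in 20 such groups, and the boundary was proposed with segments of this tumor known.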

How the results depend on the processing

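The difference of the Chr1 level between HCC and livers did not pass in any of 22 alternatives, all tested with limma except the exact permutation test. It changed sign in 3: it was -0.0063 with arrays centred on the mode, -0.0091 without 4033LT1 and -0.0836 on the second scan day alone. Over leaving out each tissue in turn it ranged from -0.0091 to 0.123. The cause was not tested. With mouse as a replicate block it was 0.06 (limma adjusted p = 0.774), with slide as a random block 0.06 and with scan day as a block 0.09, and the exact permutation test gave an adjusted p of 0.838. The block changed no call, and no Chr1 probe was called under any of 21 alternatives. The count of 1 HCC at 0.3 or more was 0 with normexp, 0 with forward arrays only, 0 without 4033LT1, 0 at a threshold of 0.5 and 3 at 0.2, and ranged from 0 to 1 with tissues left out. The mean of proximal part minus remaining probes kept its sign in 24 alternatives. It was 0.10 with a mouse block, 0.00 on the first scan day alone, 0.17 on the second, and 0.02 to 0.13 with tissues left out. 3151LT1, which carried this mean, was scanned on the second day. Leaving out a liver cannot change this mean over HCC, and other centring can hardly do so. The 25 short regions became 13 with normexp, 13 with forward arrays, 13 at a penalty factor of 5, 42 with at least 3 probes, 9 with at least 10, 9 at a threshold of 0.5, and 15 to 25 with tissues left out. The 9 segments of HCC against their own liver stayed 9 in every processing alternative, where other centring could hardly move a step. They became 11 at a penalty factor of 2. With tissues left out they ranged from 3 to 8, since both step-bearing HCC rest on the liver of mouse 3151. Regressing out probe GC and the boundary within the large step were chosen after seeing the data. Of the Chr1 probes, 124 were dim on at least 1 array.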
